A study of Nicotiana benthamiana with 12 samples.

Results

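The effect of heat on translation efficiency was measured across the genes of Nicotiana benthamiana leaves. Translation efficiency of a gene is the log2 ratio of its level in polysome RNA to its level in total RNA, and the effect of heat on it is that ratio in heated plants minus the ratio in control plants. All 12 libraries of the series entered the comparison, 3 in each of 4 groups, and 34325 of the 40763 genes in the count table had enough reads to be tested. The plants were 5 weeks old and grown in soil, and they were either left at 23 °C (mock) or exposed to 37 °C for 1 h (heat). From leaves of each treatment, total RNA (called input in the sample titles) and polysome RNA, the transcripts carried by ribosomes, were sequenced. No genotype, transgene or further agent is named in the labels for any group, and the labels do not describe how polysomes were isolated.

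When a leaf meets heat, heat shock transcription factors switch on chaperone genes, and at the same time initiation of translation is reduced for many transcripts that were already there. Transcripts that stay on, or move onto, ribosomes are enriched in polysomes relative to total RNA, and transcripts that leave ribosomes are depleted. Chaperones refold or hold damaged proteins: small heat shock proteins bind unfolding clients, HSP70 with its DnaJ partners refolds them, HSP90 matures signalling proteins, HSP100 pulls proteins out of aggregates and chaperonins enclose them. In leaf cells, much of the polysome RNA codes for proteins that are made in the cytosol and imported into chloroplasts, such as the antenna proteins that hold chlorophyll.

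Total counts per library lay between 10724854 and 14485118. Levels are given as CPM, counts scaled to a common library size, after scaling by the trimmed mean of M values (TMM), so that each level is relative to the other transcripts of its library. A change that affects all transcripts alike is therefore not seen, and fewer cells of a type and less RNA per cell cannot be told apart. The TMM factors differed by group. They were 1.40 to 1.46 in mock total, 0.79 to 0.96 in mock polysome, 1.22 to 1.26 in heat total and 0.56 to 0.68 in heat polysome RNA. Shares of all counts given for lists below are without TMM scaling and can move otherwise than the scaled changes. Efficiency changes are on the log2 scale with a standard error (SE), where 1 stands for a factor of 2, and a gene is said to have risen or fallen in efficiency only where the adjusted p of edgeR's quasi-likelihood test, Benjamini-Hochberg adjusted over all genes tested, was under 0.05. The SD and n refer to the 3 libraries of a group, which the submitters call biological replicates without saying whether each is 1 plant or a pool. The lowest value in every library of the deposited table is 1, and read numbers below are those above that value. Where 3 levels are given for a group, they stand in the order of the numbers in the library titles. N. benthamiana carries near-identical gene copies, and reads shared between copies can be split among them in counting. Gene identifiers and annotations are those of the deposited table.

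The library titles carry the numbers 5, 6 and 7 in the mock total and the heat polysome group, and 2, 3 and 4 in the heat total and the mock polysome group. The efficiency change adds the first pair of groups and subtracts the second, so a difference between the 2 sets of numbers and the effect of heat on efficiency cannot be told apart. The labels do not say what the numbers stand for. The mock total RNA libraries were not alike: summed over 129 tested genes whose annotation names a plastid-encoded protein, libraries 6 and 7 had 10090 and 9796 CPM, and library 5 had 628 CPM. For this reason the calls were also made with library 5 alone in its group. The counts of rises and falls of each list are given for both fits. Where a named gene that rose or fell did not pass with library 5 alone, its adjusted p or its change there is given. This is a fit in which that single library is assumed to vary like those of the other groups. Those groups did not vary alike. As squared differences over sampling noise, heat total pairs were at 1.66 to 2.14. Mock polysome pairs were at 20.1 to 31.7 and heat polysome pairs at 2.34 to 17.6. The fit with all libraries also gives each gene a common spread over the groups. The part of this inequality in the SEs and calls was not tested.

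Efficiency rose in 3502 genes, 10.2% of those tested, and fell in 2891 genes, 8.42% of those tested (edgeR's quasi-likelihood test, adjusted p under 0.05). The median change was 1.20 among the genes that rose and −1.30 among those that fell, against a median of 0.07 over all genes tested. A change larger than 1 was seen in 2371 of the genes that rose and in 2169 of those that fell, and one larger than 2 in 536 and 444. With RLE size factors in place of TMM the balance between the directions turned, to 3085 rises and 3246 falls. DESeq2, which differs in its test and in testing 40763 genes as well as in scaling, gave 3056 and 3655. With mock total library 5 alone, 1374 genes rose, 3.77% of 36434 tested, and 1060 fell, 2.91%. Of the 3502 genes that rose with all libraries, 3445 had a positive change in that fit and 1325 were called in it too; of the 2891 that fell, 2891 had a negative change and 1019 were called too. The fit with library 5 alone uses only libraries that are also in the first fit. Agreement in sign between the fits is therefore largely built in and is no separate check. Leaving out heat total library 2, 3 or 4 or heat polysome library 5 lowered the number of rises to 2235, 2171, 2179 and 2328.

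The efficiency change is the polysome change minus the total RNA change, so genes chosen for it move with the former and against the latter by construction, and the values that follow only describe them. The polysome level moved the same way as the efficiency in 2984 of the 3502 rises and in 2311 of the 2891 falls. Among the genes that rose, the median level in heat against mock was 1.03 higher on the log2 scale in polysome RNA and differed by −0.21 in total RNA. Among those that fell, it differed by −0.84 in polysome RNA and by 0.51 in total RNA. The total RNA level moved against the efficiency in 2102 of the rises and 2101 of the falls. Past the threshold of its own test, the total RNA level went down in 1266 of the genes whose efficiency rose and up in 1422 of the genes whose efficiency fell. In the plot of each gene's efficiency in mock and in heat, the genes that rose had a median efficiency of −0.47 in mock and 0.87 in heat, and those that fell one of 0.21 in mock and −1.18 in heat.

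**Figure D1:**
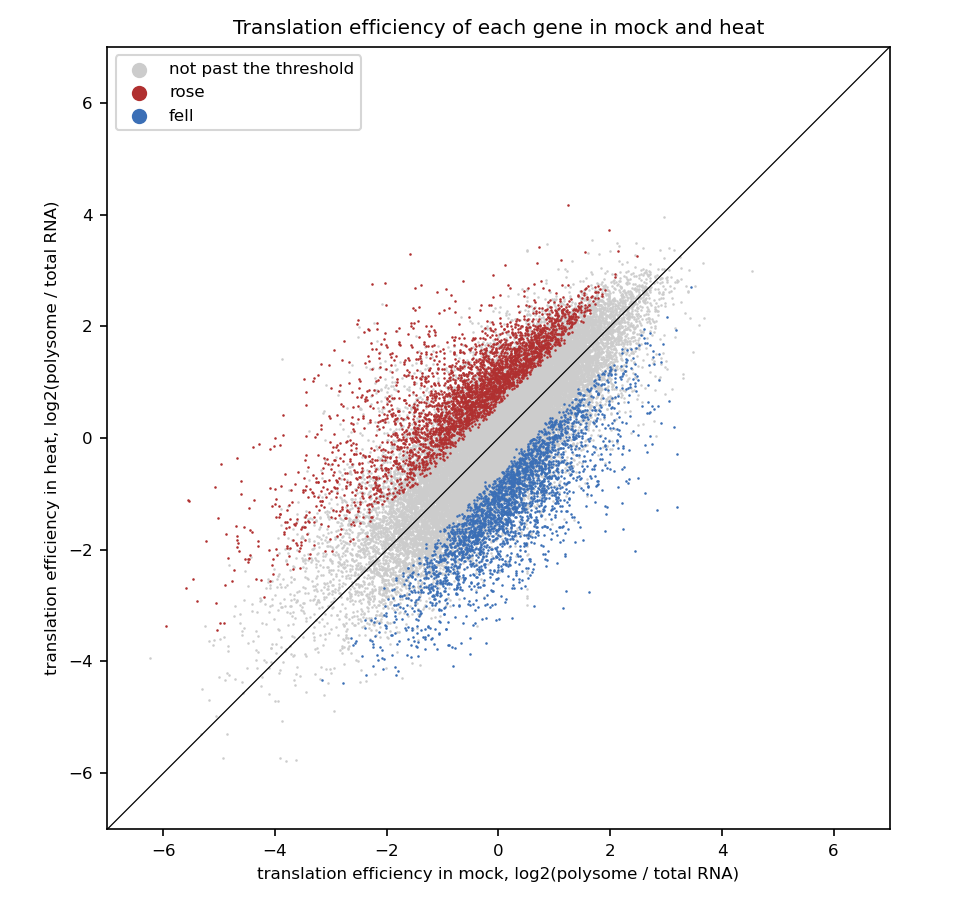
Each point is 1 of the 34325 genes tested, with its log2 ratio of polysome to total RNA in mock on the x axis and in heat on the y axis; the diagonal marks no change. The 3502 genes that rose lie above the diagonal (red) and the 2891 that fell lie below it (blue).

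Among abundant genes, the largest rises were those of GTPase Der, alcohol dehydrogenase 2 and sulfate adenylyltransferase, and in all 12 described here but hydroxypyruvate reductase the mean level was lowest in mock polysome RNA. They were taken as the 12 largest rises that also passed with library 5 alone, kept their direction with any library left out, and lay above the median abundance. Alcohol dehydrogenase 2 (Niben101Scf19980g00001.1), an enzyme of fermentation, had 15.8, 15 and 14.3 CPM in mock total RNA and 0.666, 0.840 and 1.68 CPM in mock polysome RNA. In heat, 17.3, 17.4 and 20.3 CPM were measured in total RNA and 36, 20.3 and 16.8 CPM in polysome RNA. Its mock polysome libraries were all below its other 9 libraries, and its efficiency rose by 4.27 ± 0.41 (SE; edgeR adjusted p = 5.7e-05), from -3.86 in mock to 0.41 in heat. Magnesium-protoporphyrin IX methyltransferase (Niben101Ctg06549g00002.1), an enzyme of chlorophyll synthesis, had 44.2, 43.8 and 44.8 CPM in mock total RNA and 9.23, 6.57 and 7.61 CPM in mock polysome RNA. In heat, 32.5, 31.2 and 34.2 CPM were measured in total RNA and 59.1, 47.3 and 38.6 CPM in polysome RNA. Each group was separate from the group it is compared with, total RNA being lower and polysome RNA higher in heat. Its efficiency rose by 3.08 ± 0.24 (SE; edgeR adjusted p = 2.2e-05), and all 3 tested genes with that annotation rose. Glycine-rich RNA-binding protein 2 (Niben101Ctg14086g00004.1), of a family that binds RNA in stress, had 58.4, 54.7 and 37.1 CPM in mock total RNA and 8.66, 9.32 and 6.16 CPM in mock polysome RNA. In heat, 18.2, 22.3 and 20.3 CPM were measured in total RNA and 31.2, 24.9 and 22.9 CPM in polysome RNA. Its total RNA was lower and its polysome RNA higher in every heat library than in any mock library, with an efficiency change of 3.0 ± 0.28 (SE), and 4 of 5 genes with the annotation rose.

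Among the other 9, the amino acid and sulfur enzymes were sulfate adenylyltransferase, which activates sulfate, at 4.01 (Niben101Scf00594g07001.1), glutamine synthetase 2, which fixes ammonium in the chloroplast, at 3.61 (Niben101Ctg03632g00004.1), and glutamate decarboxylase 1, which makes the amino acid GABA, at 3.43 (Niben101Scf00440g01007.1). Hydroxypyruvate reductase, of photorespiration, rose by 3.72 (Niben101Scf00607g03026.1), although its mock total libraries were spread over 4.34 to 13.4 CPM. The other 5 were annotated as GTPase Der, at 4.42 (Niben101Scf39490g00008.1), NADH-quinone oxidoreductase subunit N, at 3.23 (Niben101Scf07409g00009.1), the bacterial protein name ArnA, at 3.11 (Niben101Scf03862g03013.1), U-box domain-containing protein 38, of the ubiquitin ligase type, at 3.02 (Niben101Scf00146g01002.1), and the cytoskeletal actin-1, at 3.0 (Niben101Ctg12493g00001.1). GTPase Der had 7 reads over the mock polysome libraries, sulfate adenylyltransferase 17 and ArnA 26. Of 9 tested genes annotated GTPase Der 1 rose and 1 fell, and of 7 annotated ArnA 1 rose and 2 fell, so neither gene stands for its annotation. Of 5 tested genes annotated NADH-quinone oxidoreductase subunit N 1 rose, as did 1 of 5 annotated actin-1. Adjusted p-values of edgeR for all 12 rises were between 2.2e-05 and 0.0038, and the changes with library 5 alone lay between 2.92 and 4.47.

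The 12 largest falls among abundant genes, chosen in the same way, were led by ATP-dependent RNA helicase A and phosphoadenosine phosphosulfate reductase, and in all of these but the dynein light chain gene the mean level was lowest in heat polysome RNA. A tetratricopeptide repeat (TPR)-like superfamily protein (Niben101Scf06190g01001.1) had 135, 108 and 77.9 CPM in mock total RNA and 65.5, 85.2 and 89.8 CPM in mock polysome RNA. In heat, 93.3, 88.3 and 94.6 CPM were measured in total RNA and 6.52, 12.5 and 8.84 CPM in polysome RNA. Total RNA overlapped between mock and heat, while each heat polysome library was below every mock polysome library, and efficiency fell by 2.89 ± 0.32 (SE; edgeR adjusted p = 0.00015), from -0.42 in mock to -3.30 in heat. ATP-dependent RNA helicase A (Niben101Scf03550g00021.1), which unwinds RNA, had 37.3, 26 and 14.9 CPM in mock total RNA and 27.3, 25.9 and 22.7 CPM in mock polysome RNA. In heat, 47.5, 47.8 and 50.05 CPM were measured in total RNA and 3.57, 5.91 and 5.6 CPM in polysome RNA. Total RNA was higher and polysome RNA lower in heat with no overlap, the change was -3.22 ± 0.37 (SE; edgeR adjusted p = 0.00018), and 6 of 13 tested genes with the annotation fell and 0 rose. Ubiquitin-protein ligase 2 (Niben101Scf02164g04001.1), which attaches ubiquitin to proteins, had 25.2, 37.2 and 24.3 CPM in mock total RNA and 26.1, 47.3 and 34.4 CPM in mock polysome RNA. In heat, 64.1, 74.6 and 80.4 CPM were measured in total RNA and 7.87, 16.3 and 16.9 CPM in polysome RNA. Its annotated homolog has 3658 residues. Its total RNA level went from 28.9 ± 7.15 CPM (SD, n = 3) to 73 ± 8.27 CPM, while its polysome level was lower in every heat library than in any mock library. The efficiency change was -2.73 ± 0.37 (SE; edgeR adjusted p = 0.0004), and 4 of 5 tested genes with the annotation fell.

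Phosphoadenosine phosphosulfate reductase, of sulfur assimilation, changed by -3.22 (Niben101Scf00327g00011.1), acetyl-coenzyme A synthetase by -2.96 (Niben101Scf02072g02027.1), sugar transporter 9 by -2.91 (Niben101Scf03612g00008.1) and lysophosphatidylcholine acyltransferase 2, of membrane lipid remodelling, by -2.85 (Niben101Scf03676g02012.1). A U3snoRNP10 and NUC211 domain-containing protein, of a complex that processes ribosomal RNA, changed by -3.01 (Niben101Scf03809g00009.1). The kinases annotated as TEL1, a DNA damage kinase in yeast, and as a receptor-like protein kinase changed by -2.92 (Niben101Scf11107g00015.1) and -2.72 (Niben101Scf02953g01001.1). Outer arm dynein light chain 1 protein changed by -3.20 (Niben101Scf01395g05008.1) and the protease NMA111 by -2.70 (Niben101Scf08692g00005.1). Adjusted p-values of edgeR for the 12 falls were between 2.7e-05 and 0.0004. The annotation receptor-like protein kinase is shared by 349 tested genes, of which 23 rose and 36 fell, and of 5 genes annotated as phosphoadenosine phosphosulfate reductase 3 rose and 1 fell, so neither gene stands for its annotation. Of 15 tested genes annotated as acetyl-coenzyme A synthetase 1 rose and 2 fell.

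**Figure D2:**
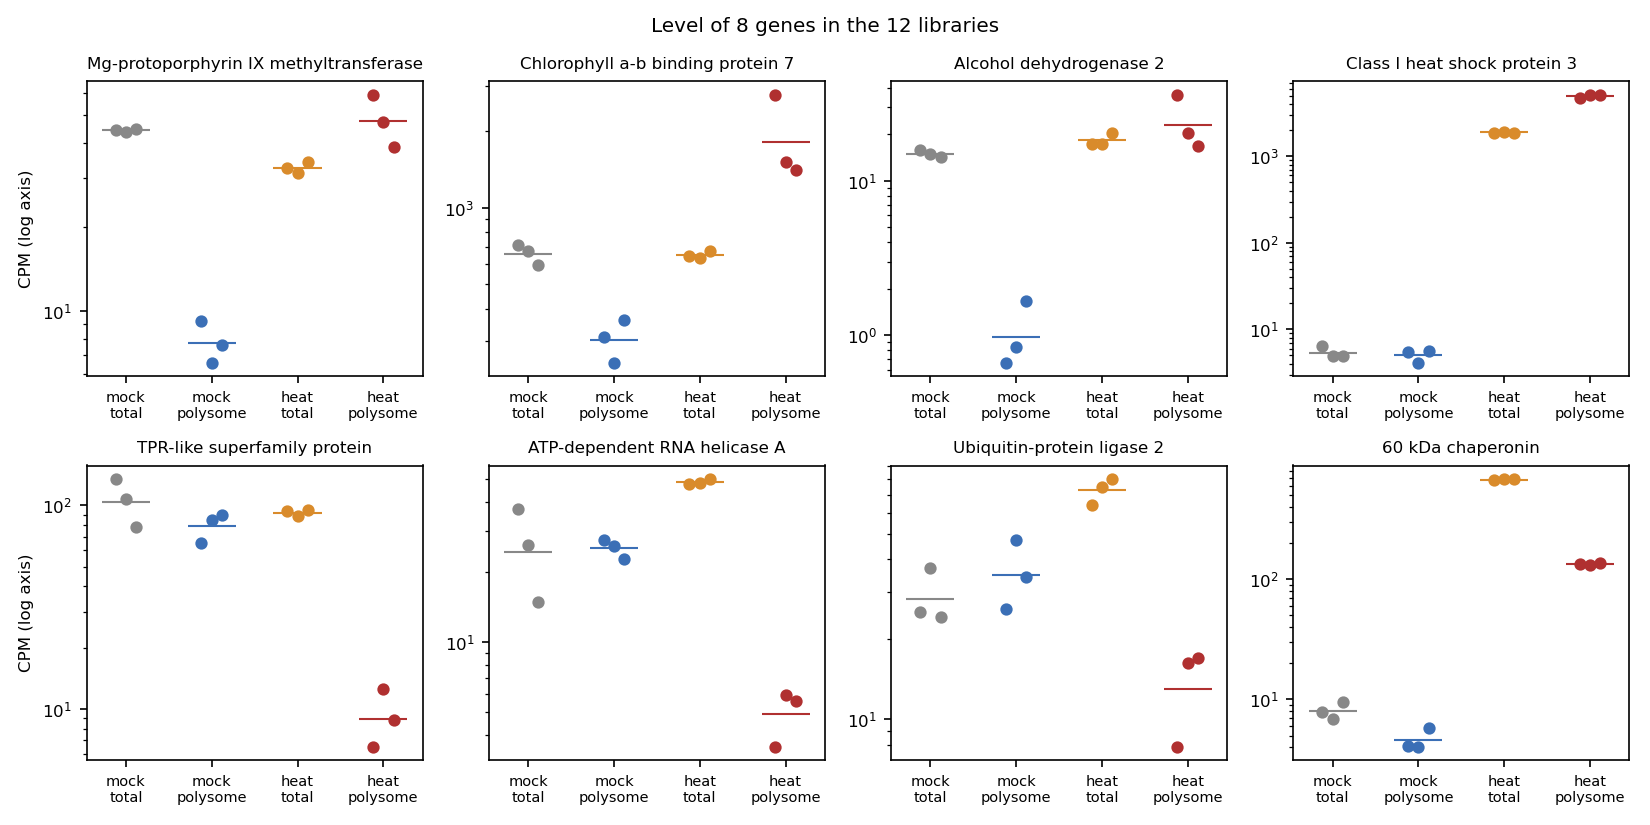
Levels in CPM (log axis) of 8 genes in each of the 12 libraries, with a line at the geometric mean of each group of 3. Alcohol dehydrogenase 2 reaches at most 1.68 CPM in mock polysome RNA, and the TPR-like protein at most 12.5 CPM in heat polysome RNA and at least 65.5 CPM elsewhere.

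Nuclear genes of the photosynthetic antenna rose in efficiency in 41 of 74 members. Light-harvesting antenna proteins bind chlorophyll and pass its excitation to the photosystems. None fell with all libraries, and 10.2% of all genes rose. Their median change was 0.88, against 0.07 over all genes, and their median efficiency was 0.78 in mock and 1.79 in heat. The list took 12.2 ± 0.906% (SD, n = 3) of all counts in mock total RNA, 13.5 ± 1.51% in mock polysome RNA, 9.19 ± 0.216% in heat total RNA and 15.7 ± 1.80% in heat polysome RNA, so the transcripts that mark green leaf tissue were abundant in every group. With library 5 alone, the median was 1.02 and 23 members rose. Leaving out 1 library gave 30 to 43 rises, and 1 fall without mock polysome library 2.

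Chlorophyll a-b binding protein 7 (Niben101Scf05621g13007.1) had 716, 677 and 596 CPM in mock total RNA and 312, 246 and 363 CPM in mock polysome RNA. In heat, 647, 634 and 677 CPM were measured in total RNA and 2779, 1516 and 1414 CPM in polysome RNA. Total RNA overlapped between treatments, and the heat polysome libraries were all far above the mock ones. Its efficiency rose by 2.66 ± 0.32 (SE; edgeR adjusted p = 0.00023), from -1.11 in mock to 1.54 in heat. The most abundant member, chlorophyll a-b binding protein 37 (Niben101Scf02852g02007.1), had a change of 0.82 ± 0.34 (SE) that did not pass (edgeR adjusted p = 0.11), with polysome levels from 6283 to 10890 CPM in mock and from 14600 to 24090 CPM in heat.

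Enzymes of chlorophyll synthesis followed with 20 of 42 members risen, 2 fallen and a median change of 0.74. This list was added after values were seen. Of its members 47.6% rose and 4.76% fell, against 10.2% and 8.42% of all genes. With library 5 alone its median was 0.67, with 10 rises and 1 fall, and 16 to 20 members rose with 1 library left out, with 1 fall without heat polysome 6. Besides the methyltransferase described above, the abundant monomethyl ester cyclase of the same branch (Niben101Scf09869g01021.1) rose by 0.73 ± 0.19 (SE; edgeR adjusted p = 0.017, and 0.13 with library 5 alone), a call that was lost without heat total library 2 or 4, with edgeR adjusted p up to 0.058. Magnesium chelatase subunit ChlI (Niben101Scf01209g04002.1), which puts magnesium into the ring, fell by 1.20 ± 0.26 (SE; edgeR adjusted p = 0.0052), from 70.9 ± 19.2 CPM (SD, n = 3) to 37.9 ± 4.69 CPM in polysome RNA.

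Nuclear subunits of the photosystems and of electron transport rose in 35 of 121 members and fell in 5, with a median change of 0.48. These are 28.9% and 4.13% of the members, against 10.2% and 8.42% of all genes. The smallest p among the rises was that of oxygen-evolving enhancer protein 3-2 (Niben101Scf10322g01011.1), which stabilises the water-splitting site. It had 98, 81 and 84.5 CPM in mock total RNA and 93.9, 72.9 and 101.4 CPM in mock polysome RNA. In heat, 40.4, 41.1 and 39.7 CPM were measured in total RNA and 128, 129.7 and 119.6 CPM in polysome RNA. Every heat total library was below every mock one and every heat polysome library above every mock one, and the efficiency rose by 1.61 ± 0.20 (SE; edgeR adjusted p = 0.00029). A protein annotated as 4Fe-4S ferredoxin, an electron carrier (Niben101Scf02111g14012.1), fell by 2.21 ± 0.30 (SE; edgeR adjusted p = 0.0004), and photosystem I reaction center subunit XI (Niben101Scf06919g00006.1), the most abundant member, had 0.22 ± 0.26 (SE; edgeR adjusted p = 0.6). With library 5 alone the median was 0.42, with 20 rises and 1 fall; 9 members fell without mock polysome library 2, and 2 or 3 without mock polysome 4, heat total 2 or 3 or heat polysome 6.

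Carbon fixation genes, which include the Rubisco small subunit, rose in 8 of 38 members and fell in 0, with a median of 0.48 (0.46 with library 5 alone, where 2 rose). Rubisco activase (Niben101Scf01653g02013.1), which frees the active site of Rubisco, had 209, 207 and 210.5 CPM in mock total RNA and 132, 186 and 214 CPM in mock polysome RNA. In heat, 199.5, 196 and 195 CPM were measured in total RNA and 686, 489 and 449 CPM in polysome RNA. Its heat total libraries were slightly below the mock ones and its heat polysome libraries far above the mock ones, and its efficiency rose by 1.70 ± 0.26 (SE; edgeR adjusted p = 0.00083). The most abundant Rubisco small chain gene (Niben101Scf03015g06015.1) had a difference of 0.49 ± 0.24 (SE; edgeR adjusted p = 0.18). Without TMM scaling, the carbon fixation list took on average 8.87% of counts in mock total and 8.66% in mock polysome RNA. In heat it took 6.16% in total and 6.37% in polysome RNA. Leaving out heat total library 2, 3 or 4 or heat polysome library 5 left 3 to 5 rises; 1 fell without mock total 5 or heat polysome 5 and 2 without mock polysome 2. Photorespiration, a list added after values were seen, had 9 rises and 2 falls among 52 members and a median of 0.30, which was 0.04 with library 5 alone, where 4 rose and 1 fell. Of these, 4 fell without mock polysome 2 and 1 without mock total 6 or heat total 2 or 3. With all libraries 17.3% of the photorespiration genes rose and 3.85% fell. Without TMM scaling, the photorespiration list took on average 0.705% of counts in mock total and 0.689% in mock polysome RNA. In heat it took 0.731% in total and 0.512% in polysome RNA.

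Genes annotated as plastid-encoded and mitochondrially encoded had the largest median changes of the 50 lists, and these depended on which mock total library was used. Of 129 genes annotated as plastid-encoded proteins, 43 rose and 1 fell, with a median change of 2.91; with library 5 alone the median was −0.32, and 0 rose and 0 fell. The Rubisco large chain gene Niben101Scf11178g01008.1, whose protein carries the active site, had 73.1, 1359 and 1840 CPM in mock total RNA and 153, 326 and 90.6 CPM in mock polysome RNA. In heat, 18.2, 21.5 and 19.97 CPM were measured in total RNA and 135, 59.2 and 65 CPM in polysome RNA. Within mock total RNA, libraries 6 and 7 were far above library 5. Its change was 4.64 ± 1.03 (SE; edgeR adjusted p = 0.0067) with all libraries and 0.73 with library 5 alone (edgeR adjusted p = 0.54). The number of rises in the list was 105 without mock total library 5, and between 6 and 24 without any 1 of the other libraries except mock polysome library 3. As shares with all libraries, 33.3% rose and 0.775% fell, against 10.2% and 8.42% of all genes.

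Summed over 28 tested genes annotated as mitochondrially encoded, mock total libraries 6 and 7 had 123 and 92.8 CPM and library 5 had 9.20 CPM. Of these genes, 10 rose and 0 fell, with a median of 2.50, against −1.37 with library 5 alone, where 0 passed. With all libraries but mock total 5, 19 rose, and 4 to 6 without any other library except mock polysome 2 or 3. As shares with all libraries, 35.7% rose and 0% fell, against 10.2% and 8.42% of all genes. NADH-ubiquinone oxidoreductase chain 4 (Niben101Scf05079g00020.1), a subunit of respiratory complex I, had 0.507, 9.10 and 8.52 CPM in mock total RNA and 1.90, 2.52 and 1.79 CPM in mock polysome RNA. In heat, 2.17, 1.52 and 2.62 CPM were measured in total RNA and 8.24, 8.55 and 8.09 CPM in polysome RNA. Mock total library 5 was below all other libraries of this gene, and libraries 6 and 7 were within the range of heat polysome RNA or just above it. The change of 3.50 ± 0.83 (SE; edgeR adjusted p = 0.0094) turned to -0.06 with library 5 alone (edgeR adjusted p = 0.96). Outside both lists, 3449 genes rose and 2890 fell. The part of this difference between mock total libraries in other results was not tested, and the labels do not describe how RNA was selected for the libraries.

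**Figure D3:**
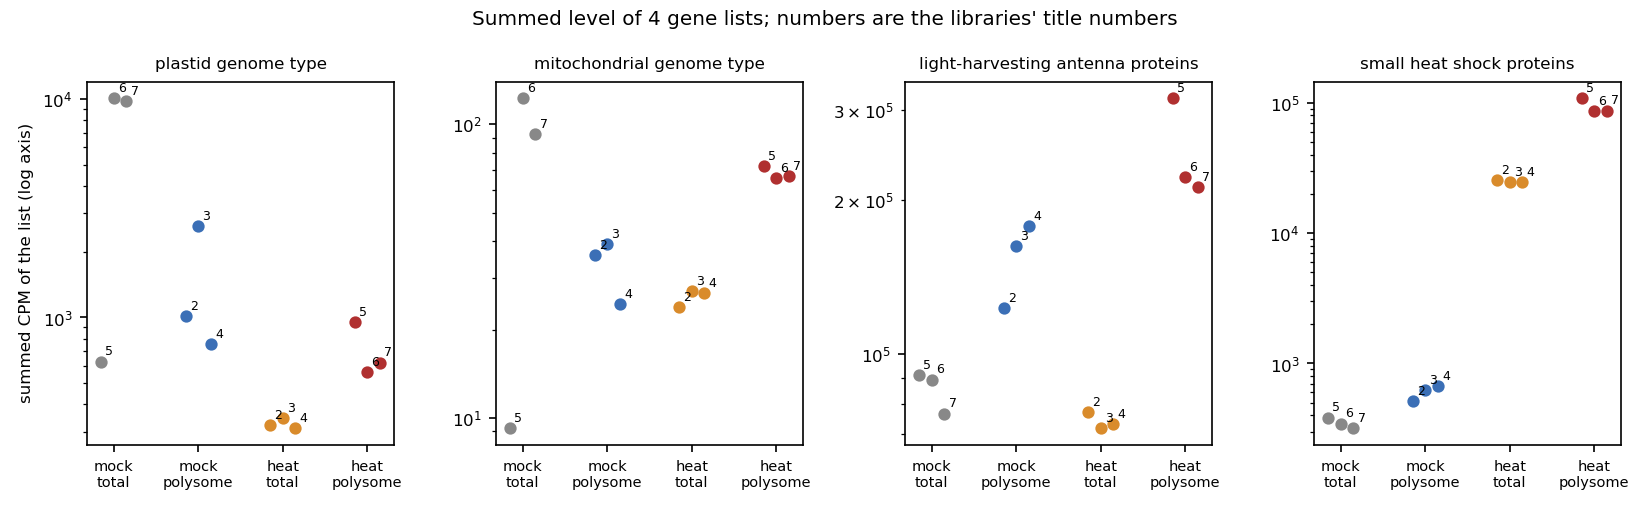
Summed CPM (log axis) of 4 gene lists in each library, labelled with the number in its title. Mock total libraries 6 and 7 stand above library 5 in the plastid (10090 and 9796 against 628 CPM) and mitochondrial lists, and in the antenna and small heat shock protein lists the heat polysome libraries are the highest.

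Among chaperones, small heat shock proteins rose in efficiency and HSP90 chaperones fell in the members that passed. The median log2 level in heat against mock was 3.89 in total and 4.43 in polysome RNA for small heat shock proteins, 3.33 and 2.89 for HSP70, 3.87 and 3.51 for HSP90, and 0.27 and 0.51 for DnaJ genes. Small heat shock proteins took 0.0497 ± 0.00380% (SD, n = 3) of counts in mock total RNA, 0.0530 ± 0.00359% in mock polysome RNA, 3.09 ± 0.0164% in heat total RNA and 5.93 ± 0.159% in heat polysome RNA. Of 74 tested members, 16 rose in efficiency and 0 fell, with a median change of 1.03 and a median efficiency of 0.51 in mock and 1.47 in heat. These are 21.6% and 0% of the members, against 10.2% and 8.42% of all genes. In 15 members the mock efficiency rested on 3 reads or fewer in 1 of the mock groups, and none of the 16 rises was among them. The 17.6 kDa class I heat shock protein 3 (Niben101Scf09262g01017.1) had 6.47, 4.87 and 4.93 CPM in mock total RNA and 5.42, 4.12 and 5.6 CPM in mock polysome RNA. In heat, 1869, 1916 and 1874 CPM were measured in total RNA and 4676, 5122 and 5102 CPM in polysome RNA. In mock its total and polysome libraries overlapped, and in heat every polysome library was above every total library, so that its efficiency rose by 1.51 ± 0.24 (SE; edgeR adjusted p = 0.0011). The most abundant member (Niben101Scf10384g00014.1) reached 18440, 12400 and 12780 CPM in heat polysome RNA and rose by 1.34 ± 0.40 (SE; edgeR adjusted p = 0.028), a call lost with 7 of the 12 libraries left out in turn (adjusted p up to 0.1): mock total 5, mock polysome 3 and 4, heat total 2, 3 and 4, and heat polysome 5. With library 5 alone 7 members rose and the median was 0.91; leaving out mock polysome 3 or 4, any heat total library or heat polysome 6 left 8 to 10 rises, and 1 fell without mock polysome 4.

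HSP90 chaperones, annotated mostly as HtpG, moved the other way: 8 of 23 members fell in efficiency and 0 rose, with a median change of −0.52 (−0.61 with library 5 alone, where none passed). The member with the smallest p (Niben101Scf06890g01022.1) had 17.1, 14.2 and 16.3 CPM in mock total RNA and 17, 23.1 and 21.4 CPM in mock polysome RNA. In heat, 572, 606 and 620.2 CPM were measured in total RNA and 397, 441 and 434 CPM in polysome RNA. Mock total and polysome libraries overlapped, and in heat every polysome library was below every total library, with a change of -0.87 ± 0.21 (SE; edgeR adjusted p = 0.01, and 0.11 with library 5 alone). The most abundant member (Niben101Scf04847g03018.1) changed by -0.77 ± 0.24 (SE; edgeR adjusted p = 0.036, and 0.11 with library 5 alone), a call lost with 7 of the libraries left out in turn (mock total 5 and 6, heat total 2, 3 and 4, heat polysome 6 and 7; adjusted p up to 0.096). The count of falls was 4 or 5 when mock total 5 or 6, mock polysome 4, a heat total library or heat polysome 7 was left out. As shares of the HSP90 list, 34.8% fell and 0% rose with all libraries, against 8.42% and 10.2% of all genes.

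HSP70 chaperones had 3 rises and 5 falls among 52 members (1 and 1 with library 5 alone), with a median of −0.09. With all libraries 5.77% rose and 9.62% fell, against 10.2% and 8.42% of all genes. Only 0 or 1 rose without any library other than mock total 7, mock polysome 3 or heat polysome 7, and 3 fell without mock total 6, mock polysome 3, heat total 4 or heat polysome 5 or 6. A 70 kDa member (Niben101Scf10036g00001.1) fell by 1.11 ± 0.23 (SE; edgeR adjusted p = 0.0042), a DnaK-type member (Niben101Scf03376g05017.1) rose by 0.82 ± 0.23 (SE; edgeR adjusted p = 0.024, and 0.078 with library 5 alone) in a call lost without any 1 of several libraries (mock total 5 and 6, mock polysome 2 and 4, heat total 2, 3 and 4, heat polysome 5, with edgeR adjusted p up to 0.071). The most abundant member (Niben101Scf12154g01009.1) had 0.50 ± 0.21 (SE; edgeR adjusted p = 0.1). DnaJ co-chaperones rose in 33 of 218 members and fell in 16 (18 and 4 with library 5 alone), or in 10 without heat polysome library 5. The DnaJ gene with the highest level (Niben101Scf03817g16010.1) went from 2.03 ± 0.302 CPM (SD, n = 3) to 1525 ± 25.7 CPM in polysome RNA and rose in efficiency by 0.91 ± 0.24 (SE; edgeR adjusted p = 0.016, and 0.091 with library 5 alone; 0.052 without mock total library 6). Another DnaJ gene (Niben101Scf06347g04035.1) rose by 1.75 ± 0.21 and a further one (Niben101Scf05222g05008.1) fell by 1.62 ± 0.26 (SE). HSP100 and Clp genes rose in 11 of 71 members and fell in 4 (8 and 2 with library 5 alone). A Clp protease subunit (Niben101Scf01640g03002.1), of the chloroplast protein-degrading machine, rose by 1.35 ± 0.20 (SE; edgeR adjusted p = 0.00057), the ClpB 2 gene (Niben101Scf02220g05011.1) changed by -3.59 ± 0.63 (SE) on 2 reads over the mock total libraries, and Clp proteolytic subunit 1 (Niben101Scf01700g01004.1) had 0.44 ± 0.25 (SE; edgeR adjusted p = 0.24). With all libraries 15.1% of the DnaJ genes rose and 7.34% fell, and 15.5% of the HSP100 and Clp genes rose and 5.63% fell. The shares of all genes were 10.2% and 8.42%.

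Chaperonins and other co-chaperones, among them the prolyl isomerases, rose in 38 of 210 members and fell in 19 (14 and 6 with library 5 alone), with a median of 0.06. A 60 kDa chaperonin gene (Niben101Scf01922g05005.1) had 7.87, 6.93 and 9.48 CPM in mock total RNA and 4.09, 4.05 and 5.82 CPM in mock polysome RNA. In heat, 667, 678 and 686 CPM were measured in total RNA and 133, 131 and 138 CPM in polysome RNA. Both fractions were higher in every heat library, and within heat the polysome level was far below the total level, so that the efficiency fell by 1.53 ± 0.24 (SE; edgeR adjusted p = 0.00083), from -0.81 in mock to -2.34 in heat. Peptidyl-prolyl cis-trans isomerase E (Niben101Scf05078g05001.1) rose by 1.58 ± 0.22 (SE; edgeR adjusted p = 0.00049), and the abundant isomerase A (Niben101Scf01847g03004.1) had 0.27 ± 0.30 (SE; edgeR adjusted p = 0.59). Without heat total library 2 or 3 the list had 22 or 24 rises, and without mock total 6, mock polysome 4 or a heat total library it had 11 or 12 falls. Its shares with all libraries were 18.1% risen and 9.05% fallen, against 10.2% and 8.42% of all genes.

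Heat shock transcription factors rose in 3 of 37 members, or 5 without mock polysome library 3, and fell in 0 (1 and 0 with library 5 alone). The shares with all libraries were 8.11% risen and 0% fallen, against 10.2% and 8.42% of all genes. Factor B4 (Niben101Scf04313g01012.1) rose by 1.03 ± 0.21 (SE; edgeR adjusted p = 0.0044), and factor A2 (Niben101Scf01777g02001.1), an activator of chaperone genes, had 0.11 ± 0.28 (SE; edgeR adjusted p = 0.84) although its polysome level went from 8.17 ± 3.06 CPM (SD, n = 3) to 563 ± 68.7 CPM. Of 7 genes of multiprotein-bridging factor 1, a transcription co-activator, 2 rose and 0 fell (0 and 0 with library 5 alone). With 1 library left out, 0 rose without mock total 5 or 6, mock polysome 2 or 4, a heat total library or heat polysome 5, and 1 without heat polysome 6. Its heat-induced form 1c (Niben101Scf01587g01006.1) had 0.571, 0.528 and 0.769 CPM in mock total RNA and 4.28, 4.35 and 2.58 CPM in mock polysome RNA. In heat, 858, 801 and 798 CPM were measured in total RNA and 7853, 5948 and 6177 CPM in polysome RNA. In both treatments polysome libraries were above total libraries, and the efficiency was 2.59 in mock and 3.02 in heat, a difference of 0.43 ± 0.36 (SE; edgeR adjusted p = 0.45). Form 1b (Niben101Scf08007g01016.1) rose by 0.64 ± 0.19 (SE; edgeR adjusted p = 0.03, and 0.13 with library 5 alone), a call lost without any 1 of several libraries (mock total 5 and 6, mock polysome 2 and 4, heat total 2, 3 and 4, heat polysome 5 and 6, with edgeR adjusted p up to 0.091).

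Genes of protein folding in the endoplasmic reticulum fell in 9 of 44 members and rose in 3, with a median of −0.35 (−0.47 with library 5 alone, where 3 fell and 1 rose). Without mock total 5 or a heat total library 1 rose. In shares, 20.5% fell and 6.82% rose with all libraries, against 8.42% and 10.2% of all genes. UDP-glucose:glycoprotein glucosyltransferase (Niben101Scf02122g02021.1), which marks unfolded glycoproteins for another round of folding, fell by 2.05 ± 0.28 (SE; edgeR adjusted p = 0.00044). Its polysome level went from 7.16 ± 0.593 CPM (SD, n = 3) in mock to 3.16 ± 1.15 CPM in heat while its total level went from 12.1 ± 1.57 CPM to 21.9 ± 0.448 CPM. Derlin-2.2 (Niben101Scf07790g03026.1), of the pathway that removes misfolded proteins from this compartment, rose by 1.18 ± 0.20 (SE; edgeR adjusted p = 0.0013). The lectin chaperone calreticulin-3 (Niben101Scf04375g04006.1) rose by 0.82 ± 0.23 (SE; edgeR adjusted p = 0.023, and 0.074 with library 5 alone), a call lost without any 1 of several libraries (mock total 5 and 6, heat total 2, 3 and 4, heat polysome 6 and 7, with edgeR adjusted p up to 0.062).

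**Figure D4:**
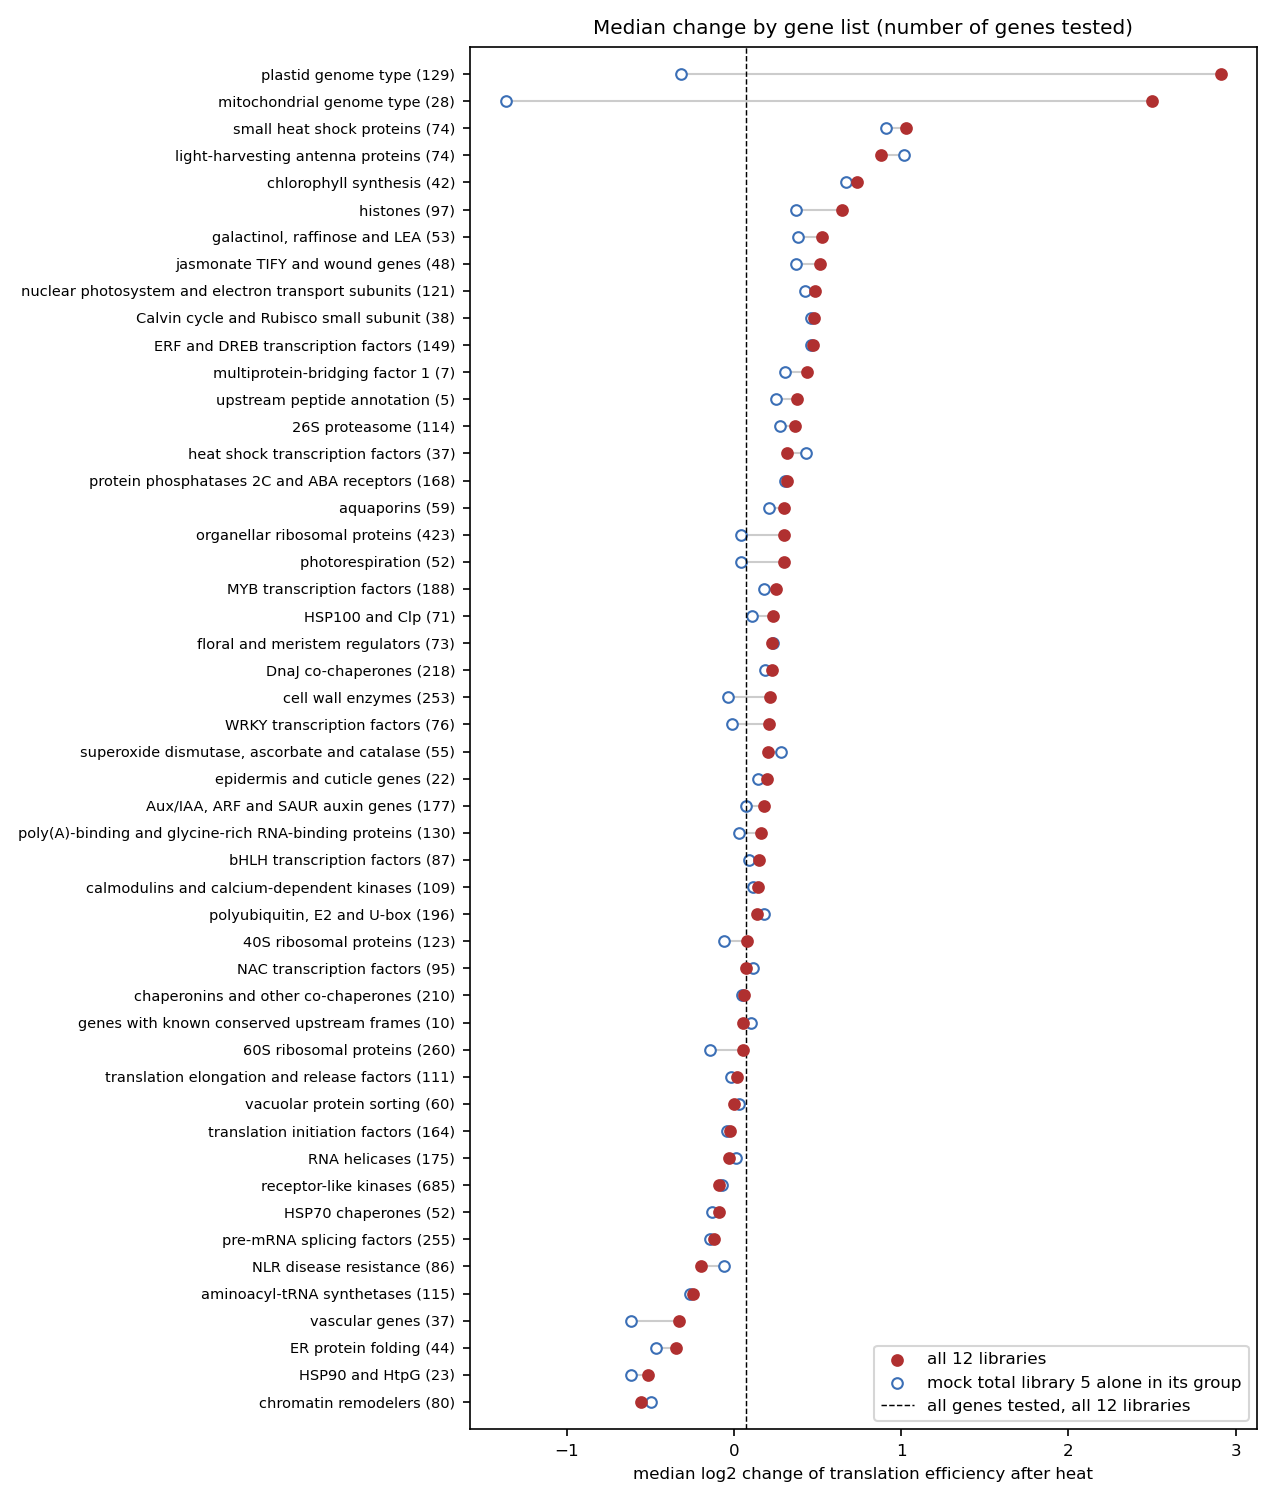
Median log2 change of translation efficiency of 50 gene lists, each with its number of tested genes, with all libraries (red) and with mock total library 5 alone in its group (open blue); the dashed line is the median of all genes, 0.07. The plastid and mitochondrial lists cross 0 between the 2 fits, antenna proteins stay near 1, and chromatin remodelers and HSP90 are the lowest in the fit with all libraries.

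Cytosolic ribosomal proteins had 10 rises and 8 falls among 123 members of the small subunit (3 and 5 with library 5 alone) and 19 rises and 17 falls among 260 of the large subunit (9 and 9 with library 5 alone), shares near the 10.2% and 8.42% of all genes, with medians of 0.08 and 0.05; with library 5 alone the medians were −0.06 and −0.14. Their median efficiency was high in both treatments, 0.83 in mock and 0.85 in heat for the small subunit and 0.78 and 0.80 for the large. Abundant members such as S24-2 (Niben101Scf11383g00015.1), with -0.28 ± 0.29 (SE; edgeR adjusted p = 0.56), and L34 (Niben101Scf05060g01010.1), with 0.23 ± 0.28 (SE; edgeR adjusted p = 0.61), did not pass. Single genes did: S4 (Niben101Scf17473g00009.1) rose by 2.38 ± 0.39 and L4-1 (Niben101Scf00854g04020.1) by 1.24 ± 0.19, while S11 (Niben101Scf05857g01001.1) fell by 2.35 ± 0.35 and L37a (Niben101Scf10158g01037.1) by 1.67 ± 0.31 (SE; edgeR adjusted p from 0.00071 to 0.0024). In the small subunit 19 rose without mock polysome library 2 and 5 or 6 without mock polysome 4 or a heat total library, and 3 or 4 fell without mock total 5 or 6, mock polysome 4, a heat total library or heat polysome 5 or 7. In the large subunit 12 rose without heat total 3, 33 fell without mock polysome 3, and 8 to 10 fell without mock total 5 or 6, a heat total library or heat polysome 5. Without TMM scaling, the large subunit took 1.06% of counts in mock polysome 2 against 0.634% and 0.688% in 3 and 4. In mock total 7 it took 0.878%, against 0.636% and 0.629% in 5 and 6. The small subunit was also highest in these libraries within their groups, with 0.459% and 0.367%.

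Ribosomal proteins of the organelle type rose in 76 of 423 members and fell in 20, with a median of 0.30; with library 5 alone the median was 0.04, with 21 rises and 10 falls. L19 (Niben101Scf00428g15006.1) had 112, 112 and 126 CPM in mock total RNA and 146, 163 and 169 CPM in mock polysome RNA. In heat, 76.5, 78.2 and 75.6 CPM were measured in total RNA and 306, 239 and 246 CPM in polysome RNA. Total RNA was lower and polysome RNA higher in every heat library, and the efficiency rose by 1.33 ± 0.20 (SE; edgeR adjusted p = 0.00063). L24 (Niben101Scf02262g01011.1) fell by 1.60 ± 0.19 (SE; edgeR adjusted p = 0.00022), with total RNA overlapping and polysome RNA lower in every heat library, and the abundant L31 (Niben101Scf06171g00001.1) had 0.07 ± 0.28 (SE; edgeR adjusted p = 0.89). Of 8 tested genes annotated as L24, 4 rose and 3 fell, so the L24 gene named here does not stand for its annotation. Without heat total library 3 or 4 the list had 49 or 47 rises, and its falls were 11 to 13 without mock total 6, a heat total library or heat polysome 6.

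Initiation factors, which bring ribosomes to messenger RNA, rose in 22 of 164 members and fell in 17 (10 and 10 with library 5 alone), with a median of −0.03. With all libraries 13.4% rose and 10.4% fell, near the 10.2% and 8.42% of all genes. An eIF4A gene (Niben101Scf01998g00001.1), the helicase of the cap complex, rose by 2.15 ± 0.30 (SE; edgeR adjusted p = 0.00042), and 6 of 14 tested genes with that annotation rose and 0 fell. The scaffold eIF4G (Niben101Scf02562g01011.1) fell by 1.18 ± 0.18 (SE; edgeR adjusted p = 0.00087), and 3 of 9 genes with that annotation fell and 0 rose. It had 36.8, 33.7 and 33.6 CPM in mock total RNA and 29.6, 33.3 and 30.3 CPM in mock polysome RNA. In heat, 49.4, 52.1 and 53.6 CPM were measured in total RNA and 23, 19 and 19.3 CPM in polysome RNA. Every heat total library was above and every heat polysome library below the mock ones. The factor eIF5A (Niben101Scf03166g00008.1), which helps ribosomes past difficult peptide bonds, rose by 1.26 ± 0.22 (SE; edgeR adjusted p = 0.0016), from 211 ± 29.2 CPM (SD, n = 3) in mock polysome RNA to 485 ± 86 CPM in heat. The list had 14 rises without heat total library 3 or 4 and 11 falls without heat total library 3.

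Elongation and release factors rose in 21 of 111 members and fell in 20 (9 and 4 with library 5 alone), both shares above the 10.2% and 8.42% of all genes, with a median of 0.02. Elongation factor 1-alpha 1 (Niben101Scf36076g00002.1), which delivers aminoacyl-tRNA, rose by 2.72 ± 0.42 (SE; edgeR adjusted p = 0.00087), and a far more abundant elongation factor 1-alpha gene (Niben101Scf08618g01012.1) by 0.68 ± 0.20 (SE; edgeR adjusted p = 0.027, and 0.073 with library 5 alone), a call lost without any 1 of several libraries (mock total 5 and 6, mock polysome 3, heat total 2, 3 and 4, heat polysome 5 and 6, with edgeR adjusted p up to 0.082). Of 12 tested genes with the annotation of that abundant gene, 4 rose and 3 fell, so it does not stand for its annotation. Elongation factor G 1 (Niben101Scf00878g03001.1), of the organelle type, fell by 1.33 ± 0.26 (SE; edgeR adjusted p = 0.0031). With a heat total library or heat polysome 5 or 6 left out, 12 or 13 rose. Among poly(A)-binding and glycine-rich RNA-binding proteins 20 of 130 rose and 9 fell (13 and 4 with library 5 alone). Polyadenylate-binding protein 2 (Niben101Ctg11170g00003.1) fell by 2.40 ± 0.41 (SE; edgeR adjusted p = 0.0015), and the abundant polyadenylate-binding protein 1 (Niben101Scf06344g01021.1), which coats the tails of messenger RNA, had -0.45 ± 0.19 (SE; edgeR adjusted p = 0.11). That list had 12 or 13 rises without heat total 3 or heat polysome 5 and 15 falls without mock polysome 2. Of its members 15.4% rose and 6.92% fell with all libraries.

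Aminoacyl-tRNA synthetases, which charge tRNAs with amino acids, fell in 23 of 115 members, where 8.42% of all genes fell, and rose in 5. Their median change was −0.25, and −0.27 with library 5 alone, where 10 fell and 2 rose. Lysine--tRNA ligase (Niben101Scf03323g01004.1) had 6.92, 5.11 and 5.96 CPM in mock total RNA and 16.5, 21.5 and 21 CPM in mock polysome RNA. In heat, 9.90, 7.79 and 7.31 CPM were measured in total RNA and 4.55, 5.91 and 7.22 CPM in polysome RNA. In mock every polysome library was above every total library and in heat every one was below, and the efficiency fell by 2.22 ± 0.29 (SE; edgeR adjusted p = 0.00033). Glutamate--tRNA ligase (Niben101Scf01670g04001.1) rose by 1.80 ± 0.36 (SE; edgeR adjusted p = 0.0036) on 34 reads over the mock polysome libraries, and the abundant glycine--tRNA ligase (Niben101Scf03548g01011.1) had -0.47 ± 0.30 (SE; edgeR adjusted p = 0.3). Without mock total 6 or 7, a heat total library or heat polysome 5, 13 or 14 members fell, and without heat total 3 or 4 or heat polysome 5, 3 rose. Among all genes with homologs of 654 to 5393 residues 17.7% fell. The part of length and level in the share of synthetases that fell was not tested.

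Some plant messenger RNAs carry a short conserved reading frame ahead of the main one, through which a metabolite can slow translation. Of 10 tested genes of families known for such frames, 2 rose and 1 fell (0 and 1 with library 5 alone). Without any 1 library other than mock total 7, 0 or 1 rose, and without mock polysome 2 or 4, 2 fell. Shares with all libraries were 20% risen and 10% fallen, against 10.2% and 8.42% of all genes. S-adenosylmethionine decarboxylase (Niben101Scf04126g05024.1), of polyamine synthesis, had 98.3, 114 and 96.3 CPM in mock total RNA and 135, 119.8 and 142 CPM in mock polysome RNA. In heat, 33, 31.5 and 35.6 CPM were measured in total RNA and 17.8, 21.5 and 22.7 CPM in polysome RNA. Both fractions were lower in every heat library, the polysome fraction more so, and the efficiency fell by 1.05 ± 0.20 (SE; edgeR adjusted p = 0.0027). GDP-L-galactose phosphorylase 1 of vitamin C synthesis has 2 tested genes: 1 (Niben101Scf09436g01004.1) rose by 0.76 ± 0.25 (SE; edgeR adjusted p = 0.043, and 0.096 with library 5 alone), a call lost without any 1 of several libraries (mock total 5 and 6, mock polysome 2 and 4, heat total 2, 3 and 4, heat polysome 5 and 6, with edgeR adjusted p up to 0.12). The more abundant gene (Niben101Scf00161g05002.1) had 0.54 ± 0.22 (SE; edgeR adjusted p = 0.099). Of 5 genes annotated as conserved upstream reading frame peptides, a list added after values were seen, 1 rose and 0 fell (1 and 0 with library 5 alone). The gene that rose was Niben101Scf03114g07011.1 (2.60 ± 0.37, SE; edgeR adjusted p = 0.00046), and the most abundant (Niben101Scf09409g02015.1) had 0.46 ± 0.22 (SE).

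Chromatin remodelers, large ATP-driven enzymes that move nucleosomes, fell in 22 of 80 members and rose in 2, with a median change of −0.55, the lowest of the 50 lists. This list was added after values were seen. Of its members 27.5% fell, where 8.42% of all genes and 17.7% of those with homologs of 654 to 5393 residues fell. The part of length and level in this share was not tested. With library 5 alone the median was −0.50, with 11 falls and 0 rises, and 15 to 26 members fell with 1 library left out. Without mock total 6 or a heat total library 0 rose, and without mock polysome 2 or 4 or any heat polysome library 1 rose. Chromodomain-helicase-DNA-binding protein 8 (Niben101Scf04090g02014.1) had 3.43, 2.35 and 1.67 CPM in mock total RNA and 1.33, 1.53 and 1.34 CPM in mock polysome RNA. In heat, 15.8, 16.3 and 15.8 CPM were measured in total RNA and 0.861, 0.845 and 1.12 CPM in polysome RNA. Its total RNA was higher in every heat library while its polysome RNA was lower, and the efficiency fell by 3.26 ± 0.40 (SE; edgeR adjusted p = 0.00025). The most abundant member, annotated as protein 3 of that family (Niben101Scf05800g02016.1), fell by 1.74 ± 0.32 (SE; edgeR adjusted p = 0.0022). Protein 2 (Niben101Scf02243g01012.1) rose by 0.80 ± 0.23 (SE; edgeR adjusted p = 0.025, and 0.15 with library 5 alone), a call lost with 7 of the libraries left out in turn (adjusted p up to 0.066), namely mock total 6, mock polysome 2, the heat total libraries and heat polysome 6 and 7.

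Histones, the small proteins that nucleosomes are made of, rose in 23 of 97 members and fell in 0, with a median of 0.65. With library 5 alone the median was 0.37 and 3 rose. With all libraries 23.7% of the histones rose and 0% fell, against 10.2% and 8.42% of all genes. Their median level in heat against mock was −1.66 in total RNA and −1.07 in polysome RNA on the log2 scale. Histone H2A.1 (Niben101Scf05962g04009.1) rose in efficiency by 1.43 ± 0.25 (SE; edgeR adjusted p = 0.0015). The most abundant gene, a histone H2B (Niben101Scf02182g02007.1), rose by 1.16 ± 0.33 (SE; edgeR adjusted p = 0.024, and 0.15 with library 5 alone), a call lost without any 1 of several libraries (mock total 7, mock polysome 4, heat total 2, 3 and 4, heat polysome 5, with edgeR adjusted p up to 0.064). Of the histones, 42 rose without mock polysome library 2, and 5 to 12 without mock total 7, mock polysome 4, a heat total library or heat polysome 5 or 6, while 1 fell without mock polysome 3. Without TMM scaling, histones took 0.777% of counts in mock polysome library 2 against 0.412% and 0.433% in libraries 3 and 4. In mock total library 7 they took 0.539%, against 0.390% and 0.401% in libraries 5 and 6.

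Pre-mRNA splicing factors fell in 38 of 255 members and rose in 22 (19 and 10 with library 5 alone), with a median of −0.12. With all libraries 14.9% of the splicing factors fell and 8.63% rose, against 8.42% and 10.2% of all genes. The U6-associated protein LSm4 (Niben101Scf01740g17006.1) rose by 1.31 ± 0.21 (SE; edgeR adjusted p = 0.0012), as did all 3 tested genes with that annotation. Small nuclear ribonucleoprotein E (Niben101Scf00887g05007.1) fell by 1.20 ± 0.20 (SE; edgeR adjusted p = 0.0014). Serine/arginine-rich splicing factor 9 (Niben101Scf00154g05017.1), whose total level went from 2.73 ± 0.538 CPM (SD, n = 3) to 156 ± 7.40 CPM, had 0.82 ± 0.33 (SE; edgeR adjusted p = 0.1). Among RNA helicases 13.7% rose and 12.6% fell, against 10.2% and 8.42% of all genes. RNA helicases rose in 24 of 175 members and fell in 22 (16 and 8 with library 5 alone); a DED1-type gene of high level (Niben101Scf04633g00010.1) rose by 0.91 ± 0.24 (SE; edgeR adjusted p = 0.016, and 0.06 with library 5 alone) and another (Niben101Scf05447g02004.1) by 3.84 ± 0.51 (SE) on 6 reads over the mock polysome libraries.

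The 26S proteasome, which degrades ubiquitin-tagged proteins, rose in 30 of 114 members, 26.3% where 10.2% of all genes rose, and fell in 5. The median change was 0.37, and 0.27 with library 5 alone, where 14 rose and 3 fell. With 1 library left out 21 to 29 rose, and 9 fell without mock polysome library 2. Among all genes with homologs of 46 to 255 residues 17.2% rose. The part of length and level in the share of proteasome genes that rose was not tested. Proteasome subunit beta 2 (Niben101Scf09547g02002.1) had 22.7, 19.6 and 22.9 CPM in mock total RNA and 8.85, 10.6 and 10.6 CPM in mock polysome RNA. In heat, 20.4, 18.4 and 17.7 CPM were measured in total RNA and 40.8, 29.7 and 28 CPM in polysome RNA. Total RNA overlapped between treatments and every heat polysome library was above every mock one, with a rise of 1.91 ± 0.23 (SE; edgeR adjusted p = 0.00023). The most abundant beta subunit gene (Niben101Scf15836g03007.1) rose by 0.81 ± 0.19 (SE; edgeR adjusted p = 0.0092, and 0.071 with library 5 alone), and 6 of 8 genes with its annotation rose. The large associated protein ECM29 (Niben101Scf11684g03005.1) fell by 1.54 ± 0.23 (SE; edgeR adjusted p = 0.00074), as did both tested genes of that name.

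Polyubiquitin, E2 and U-box genes, which supply and attach ubiquitin, rose in 37 of 196 members and fell in 17 (16 and 5 with library 5 alone). U-box domain-containing protein 38 rose in both of its tested genes, the second (Niben101Scf12422g01019.1) by 2.35 ± 0.26 (SE; edgeR adjusted p = 0.00015). A polyubiquitin gene of low level (Niben101Scf06183g05001.1) fell by 2.69 ± 0.46 (SE; edgeR adjusted p = 0.0014), and E2 D1 (Niben101Scf03842g01013.1), the most abundant member, had 0.27 ± 0.21 (SE; edgeR adjusted p = 0.41). Without a heat total library 22 to 24 rose, and without heat total 3, 10 fell. The shares with all libraries were 18.9% risen and 8.67% fallen, against 10.2% and 8.42% of all genes.

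Antioxidant enzymes rose in 12 of 55 members and fell in 2 (4 and 0 with library 5 alone), or in 5 without mock polysome 2 and 1 without mock total 6, mock polysome 4 or heat total 2. A catalase gene (Niben101Ctg10591g00003.1), whose enzyme breaks down hydrogen peroxide, had 42.1, 35.8 and 31.1 CPM in mock total RNA and 3.71, 5.04 and 5.04 CPM in mock polysome RNA. In heat, 73.5, 81.6 and 80.6 CPM were measured in total RNA and 83.4, 61.6 and 53.8 CPM in polysome RNA. Its mock polysome libraries were far below all others, and the efficiency rose by 2.73 ± 0.26 (SE; edgeR adjusted p = 5.7e-05). Another catalase gene (Niben101Scf03631g00005.1) fell by 1.18 ± 0.30 (SE; edgeR adjusted p = 0.015, and 0.057 with library 5 alone), a call lost without mock polysome library 4 (adjusted p = 0.058). The abundant ascorbate peroxidase 1 (Niben101Scf06590g00003.1) had -0.30 ± 0.23 (SE; edgeR adjusted p = 0.4). In percent, 21.8% of the antioxidant list rose and 3.64% fell, against 10.2% and 8.42% of all genes. Of the galactinol, raffinose and late embryogenesis genes described next, 11.3% rose, near the share of all genes, and 1.89% fell. Galactinol, raffinose and late embryogenesis abundant (LEA) genes, linked to dehydration, rose in 6 of 53 members and fell in 1 (5 and 1 with library 5 alone), with a median of 0.52; 2 fell without mock polysome 3 or heat polysome 5 or 6. The dehydrin gene (Niben101Scf05385g04007.1) rose by 0.90 ± 0.20 (SE; edgeR adjusted p = 0.0074, and 0.11 with library 5 alone) and an LEA gene (Niben101Scf14210g00021.1) by 2.33 ± 0.30, while Lea5 (Niben101Scf09108g00003.1) fell by 1.45 ± 0.26 (SE).

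Transcription factor families had smaller shares of calls than all genes, of which 10.2% rose and 8.42% fell. The shares that rose were 6.04%, 3.95%, 6.32%, 7.98% and 5.75% in the ERF, WRKY, NAC, MYB and bHLH lists. Fewer calls are made among genes of low level, and the part of level in these shares was not tested. ERF and DREB factors of the ethylene and drought responses rose in 9 of 149 members and fell in 4 (5 and 1 with library 5 alone), with a median of 0.48. Ethylene-responsive factor 4 (Niben101Scf11424g01001.1) rose by 2.20 ± 0.45 (SE; edgeR adjusted p = 0.004), an AP2-like factor (Niben101Scf07944g03004.1) fell by 1.96 ± 0.46 (SE), and the abundant factor 1 (Niben101Scf10767g03010.1) had 1.27 ± 0.56 (SE; edgeR adjusted p = 0.13), which passed with library 5 alone at 1.90 (edgeR adjusted p = 0.019). WRKY factors of defence had 3 rises and 3 falls among 76 (0 and 1 with library 5 alone), and NAC factors had 6 and 1 among 95 (1 and 0 with library 5 alone). MYB factors had 15 and 4 among 188 (5 and 0 with library 5 alone), and bHLH factors 5 and 3 among 87 (2 and 2 with library 5 alone). NAC domain-containing protein 86 (Niben101Scf27945g00015.1) rose by 1.38 ± 0.29 and protein 78 (Niben101Scf01795g17007.1) fell by 1.17 ± 0.25 (SE; edgeR adjusted p = 0.0053, and 0.058 with library 5 alone). A MYB-like factor (Niben101Scf03993g06007.1), whose level went from 2.37 ± 0.432 CPM to 188 ± 8.55 CPM in total RNA (SD, n = 3), rose in efficiency by 1.80 ± 0.37 (SE; edgeR adjusted p = 0.0044, and 0.083 with library 5 alone). With 1 library left out the rises were 5 to 15, 2 to 5, 2 to 6, 7 to 19 and 2 to 6 in the ERF, WRKY, NAC, MYB and bHLH lists; the ERF count was highest without mock polysome 2 and the WRKY count without heat polysome 7, and the lowest NAC, MYB and bHLH counts were without heat total 2, heat total 4, and heat total 2 or heat polysome 6. Without mock polysome 2, 5 NAC and 5 WRKY genes fell, and without any library other than mock total 5 or mock polysome 2, 1 or 2 ERF genes fell.

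Protein phosphatases 2C and abscisic acid receptors, of the drought hormone pathway, rose in 27 of 168 members and fell in 3, with a median of 0.32 (10 rises and 0 falls with library 5 alone). The receptor PYR1 (Niben101Scf00104g00003.1) rose by 1.29 ± 0.24 (SE; edgeR adjusted p = 0.0023) and a phosphatase (Niben101Scf01054g15003.1) fell by 2.21 ± 0.51 (SE; edgeR adjusted p = 0.0081, and 0.068 with library 5 alone). Receptor-like kinases rose in 32 of 685 members, 4.67%, and fell in 61, 8.91% (8 and 19 with library 5 alone), the latter near the 8.42% of all genes. A kinase of the leucine-rich repeat type (Niben101Scf39295g00002.1) rose by 1.43 ± 0.26 (SE; edgeR adjusted p = 0.002). Disease resistance genes of the NLR type, the sensors of pathogen proteins, rose in 0 of 86 members and fell in 8, or 9.30% (0 and 1 with library 5 alone). One that fell (Niben101Scf00650g02002.1) changed by -2.24 ± 0.44 (SE; edgeR adjusted p = 0.0034). Without a heat total library or heat polysome 5 the phosphatase list had 13 to 17 rises, and without mock total 7 or heat total 2 or 4 it had 1 fall. Its shares with all libraries were 16.1% risen and 1.79% fallen, against 10.2% and 8.42% of all genes. Without a heat total library or heat polysome 5, the receptor-like kinases had 13 or 14 rises and 36 to 40 falls. The kinases had 18 to 21 rises without mock total 6 or 7, mock polysome 4 or heat polysome 6, and 3 to 5 NLR genes fell without mock total 6, mock polysome 4, heat total 3 or 4 or heat polysome 5 or 6.

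Calmodulins and calcium-dependent kinases rose in 11 of 109 members and fell in 13 (3 and 6 with library 5 alone). With all libraries 10.1% rose and 11.9% fell, near the 10.2% and 8.42% of all genes. Calcineurin B-like protein 10 (Niben101Scf00270g01015.1), a calcium sensor, rose by 3.90 ± 0.48 (SE; edgeR adjusted p = 0.00025) on 15 reads over the mock polysome libraries, and calcium-dependent protein kinase 19 (Niben101Scf06093g00001.1) fell by 2.22 ± 0.26 (SE; edgeR adjusted p = 0.00019). Auxin genes rose in 21 of 177 members and fell in 11 (6 and 5 with library 5 alone). With all libraries 11.9% of the auxin genes rose and 6.21% fell, also near the shares of all genes. The repressor IAA7 rose in 3 of 4 genes, with 1.57 ± 0.28 (SE; edgeR adjusted p = 0.0018) in Niben101Scf03652g03003.1. Another of the 3, the most abundant auxin gene (Niben101Scf02635g00003.1), rose by 0.76 with an SE of 0.25 (edgeR adjusted p = 0.043). Its change was 0.66 with library 5 alone. That call was lost with 11 of the libraries left out in turn, all but mock polysome 2 (edgeR adjusted p up to 0.11). Auxin response factor 5 (Niben101Scf01869g00012.1), a transcription factor of organ formation, had 9.39, 10.2 and 8.13 CPM in mock total RNA and 10.3, 10.8 and 9.07 CPM in mock polysome RNA. In heat, 3.03, 4.25 and 5.54 CPM were measured in total RNA and 0.738, 0.422 and 0.498 CPM in polysome RNA. Both fractions were lower in heat with no overlap, the polysome fraction more so, and the efficiency fell by 3.06 ± 0.40 (SE; edgeR adjusted p = 0.00033). Jasmonate and wound genes rose in 5 of 48 members and fell in 1 (3 and 1 with library 5 alone), with a median of 0.52, and wound-induced protein 1 (Niben101Scf04292g07001.1) rose by 1.56 ± 0.27 (SE; edgeR adjusted p = 0.0014). Without mock total 6, heat total 2 or 3 or heat polysome 6 the calcium list had 6 or 7 rises, and without heat total 2 or 4 it had 6 or 7 falls. Without mock total 6, a heat total library or heat polysome 6 the auxin list had 9 to 13 rises, and without a heat total library the jasmonate list had 2 or 3. Of the jasmonate and wound genes 10.4% rose with all libraries, near the 10.2% of all genes, and 2.08% fell.

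Cell wall enzymes had 16 rises and 16 falls among 253 members (6 and 4 with library 5 alone), and aquaporins, the water channels, 4 rises and 0 falls among 59 (1 and 0 with library 5 alone). In the cell wall list 6.32% rose and 6.32% fell, and of the aquaporins 6.78% and 0%, against 10.2% and 8.42% of all genes. Xyloglucan endotransglucosylase/hydrolase 6 (Niben101Scf09075g03002.1), which loosens walls, rose by 1.73 ± 0.28 (SE; edgeR adjusted p = 0.0012), and a pectin lyase-like gene (Niben101Scf03709g03009.1) fell by 2.24 ± 0.35 (SE; edgeR adjusted p = 0.00084). An aquaporin-like gene (Niben101Scf11366g02028.1) rose by 1.11 ± 0.23 (SE; edgeR adjusted p = 0.004, and 0.067 with library 5 alone). Vacuolar protein sorting genes, a list added after values were seen, rose in 6 of 60 members and fell in 10 (5 and 6 with library 5 alone). Of the vacuolar sorting genes 10% rose, near the share of all genes, and 16.7% fell. The lipid-transfer protein VPS13 (Niben101Scf02517g01023.1) fell by 2.67 ± 0.32 (SE; edgeR adjusted p = 0.00022), with 3 of 6 genes of that annotation fallen, and VPS27 (Niben101Scf03326g01016.1) rose by 2.08 ± 0.34 (SE; edgeR adjusted p = 0.0011). Of the cell wall genes 31 rose without mock polysome 2, 9 or 10 without mock polysome 3, a heat total library or heat polysome 5, and 5 to 10 fell without mock total 6, mock polysome 4, a heat total library or heat polysome 5 or 6. Without mock polysome 2 or 4, 8 aquaporins rose, without mock total 7 or mock polysome 3, 1 fell, and without heat total 3 or 4 or heat polysome 5, 6 vacuolar sorting genes fell.

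Markers of other tissues were present at low levels. Vascular genes summed to 299 to 346 CPM in mock total, 929 to 1431 CPM in mock polysome, 440 to 460 CPM in heat total and 756 to 903 CPM in heat polysome RNA. Of 37 members 0 rose and 3 fell (0 and 0 with library 5 alone), with a median of −0.33, and the phloem specific protein gene (Niben101Scf02625g05002.1) changed by -1.32 ± 0.36 (SE; edgeR adjusted p = 0.02, and 0.13 with library 5 alone), a call lost without heat polysome library 5 (adjusted p = 0.054). Floral and meristem regulators summed to 575 to 604, 865 to 942, 700 to 729 and 1133 to 1319 CPM in the same groups, with 6 rises and 2 falls among 73 (2 and 0 with library 5 alone). Homeobox protein knotted-1-like 3 (Niben101Scf09454g00008.1), the most abundant, had 0.08 ± 0.22 (SE), and MADS-box factor 16 (Niben101Scf00063g10005.1) rose by 2.49 ± 0.37 (SE; edgeR adjusted p = 0.00064). Epidermis and cuticle genes summed to 177 to 207, 270 to 381, 255 to 271 and 347 to 390 CPM, and 2 of 22 rose and 0 fell (2 and 0 with library 5 alone), among them 3-ketoacyl-CoA synthase 4 (Niben101Scf04113g12011.1) by 3.78 ± 0.55 (SE) on 5 reads over the mock polysome libraries. With 1 library left out 0 to 5 vascular genes fell, 3 to 12 floral genes rose and 1 to 4 epidermis genes rose, the lowest vascular count being without heat polysome 5 and the highest floral and epidermis counts without mock polysome 2. Antenna genes summed to 71700 to 316200 CPM. Of the vascular, floral and epidermis genes 0%, 8.22% and 9.09% rose with all libraries, against 10.2% of all genes. The shares that fell were 8.11%, 2.74% and 0%, against 8.42% of all genes. The part of tissue make-up in the efficiency changes was not tested.

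The annotation of 8369 tested genes states the length of the matched homolog in residues, and these genes were split into 5 groups of about equal size by it. Of the genes with homologs of 46 to 255 residues, 17.2% rose and 4.10% fell; of those with 654 to 5393 residues, 2.33% rose and 17.7% fell. Over the 5 groups from short to long, the median change was 0.34, 0.26, 0.14, −0.08 and −0.38, and with library 5 alone it was 0.23, 0.22, 0.09, −0.08 and −0.34. The median efficiency ran from 0.70 to −0.50 in mock and from 1.08 to −0.93 in heat, so that the span from short to long was wider in heat. Among genes above the median abundance the first and last medians were 0.37 and −0.44, and below it 0.29 and −0.32. The length is that of the homolog, not of the transcript, and lengths were looked at with earlier results of these data known, so the pattern is given without a test.

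**Figure D5:**
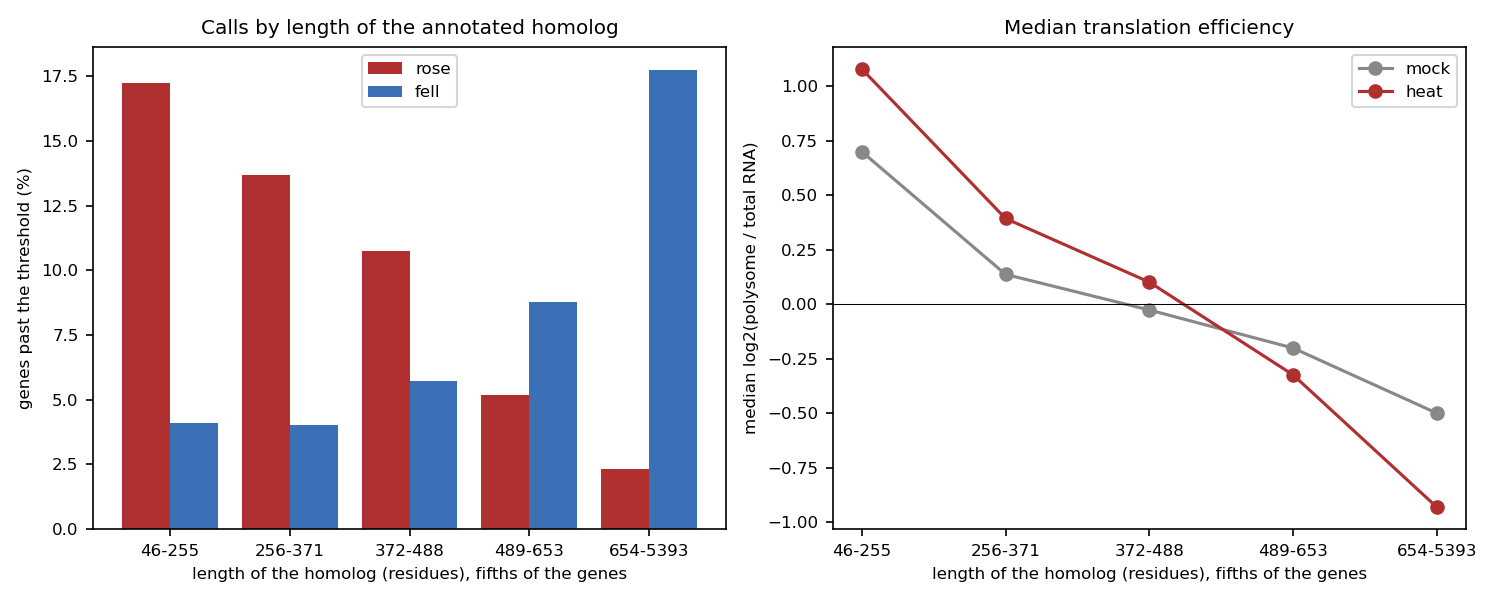
Left: share of tested genes past the threshold, rises in red and falls in blue, in 5 groups by annotated homolog length (x axis, residues). Right: median log2 ratio of polysome to total RNA in mock (grey) and heat (red) over the same groups; rises go from 17.2% to 2.33% and falls from 4.10% to 17.7%, and the 2 lines cross between the third and the fourth group.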

How the data were processed

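Total RNA and polysome RNA from leaves of mock and heat-treated plants were sequenced in 12 libraries, 3 per group. Per the submitters' processing notes, cutadapt, HISAT2, DESeq and HTSeq 0.11.0 were used; the genome build and the strand setting are not given in the sources used here. The authors deposited raw counts per gene and, in further columns that were not tested here, a normalized signal (counts divided by size factors) and log2 ratios of group means. All counts were analysed as deposited; their lowest value is 1 in every library, and taking 1 off every value was an alternative. Genes were kept by edgeR's filterByExpr with a minimum count of 10. Libraries were scaled by TMM and fitted with edgeR 4.0.16 (R 4.3.3) by the quasi-likelihood test of polysome minus total RNA in heat less the same in mock, over all 12 libraries, with Benjamini-Hochberg adjustment over all genes tested. The test was also run on simulated counts with equal group means, apart from changes put into heat polysome RNA, and 1 spread per gene. Those counts lack the unequal spread of the groups here, so no conclusion about these data is drawn from them. Total counts per library were 10724854 to 14485118. No pair of libraries in a group agreed within sampling noise. As squared differences over that noise, heat total pairs were nearest to it (1.66 to 2.14) and mock polysome libraries 2 and 3 furthest (31.7).

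The genes named are the 12 largest rises and 12 largest falls with an adjusted p under 0.05 with all libraries and with mock total library 5 alone, the same direction with each library left out, a mean above the median and an informative annotation, at most 1 per annotation text and direction, and members of the lists. For each list these were drawn from the rise and the fall with the lowest adjusted p and the most abundant member, not all of which are named. The lists, which match words of the annotations, and the members were chosen with earlier results of these data known; 5 lists were added and the plastid list was corrected after values were seen. Alternatives were RLE scaling, no filter, a mean CPM minimum of 5, DESeq2 1.42.0, limma 3.58.1 voom with and without a random block for the title number, a change above 1 and each library left out. Same-numbered libraries come from other groups and did not deviate together, with correlations between −0.0588 and −0.00316. No sequence was used.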

Additional observations from a re-analysis of the deposited data

Results flagged for a closer look

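The efficiency of 3502 genes rose and that of 2891 fell by the test of the difference between the heat and the mock contrast of polysome and total RNA, so all of these are differences of the same contrast between treatments. Some of the genes with the largest changes had a ratio of polysome to total RNA past the threshold in 1 direction in mock and in the other direction in heat. Among these, the rises were NADH-quinone oxidoreductase subunit N (Niben101Scf07409g00009.1) by 3.23, magnesium-protoporphyrin IX methyltransferase (Niben101Ctg06549g00002.1) by 3.08 and U-box protein 38 (Niben101Scf00146g01002.1) by 3.02. The others fell, with −3.22 for phosphoadenosine phosphosulfate reductase (Niben101Scf00327g00011.1), −3.20 for outer arm dynein light chain 1 (Niben101Scf01395g05008.1), −2.85 for lysophosphatidylcholine acyltransferase 2 (Niben101Scf03676g02012.1), −2.72 for a receptor-like kinase (Niben101Scf02953g01001.1) and −2.70 for NMA111 (Niben101Scf08692g00005.1). Groups of 3 libraries are too small for the test of single outlying samples.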

How the results depend on the processing

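With mock total library 5 alone in its group the rises numbered 1374 and the falls 1060, and the change of Niben101Scf05079g00020.1, a mitochondrial complex I subunit, turned from 3.50 to −0.063 (edgeR adjusted p = 0.96). Leaving out 1 library gave 2171 to 3839 rises and 1979 to 3659 falls; rises were fewest without heat total 3. RLE scaling gave 3085 rises and 3246 falls, DESeq2 (40763 genes tested) 3056 and 3655, no filter 2970 and 2954, a mean minimum of 5 CPM 3024 and 2558, voom 3350 and 2771, counts less 1 3440 and 2964, and a threshold of 1 on the change 2371 and 2169. More genes rose than fell except under RLE and DESeq2. A random block for the title number, which does not pair the samples, gave 3414 rises and 2848 falls with an estimated correlation of −0.0126. Heat and the 2 sets of title numbers cannot be told apart. Depth limits genes with few mock polysome reads.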

Other observations

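Genes whose identifier names a contig rather than a scaffold were compared after values were seen. Of 633 such genes, 15.5% rose in efficiency and 3.63% fell, with a median change of 0.44. Of 33692 genes on scaffolds, 10.1% rose and 8.51% fell, with a median of 0.07.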
